A study of Drosophila melanogaster with 3 samples.

Results

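The cuticular protein genes of Drosophila melanogaster were taken as all protein-coding genes on the main chromosome arms whose symbol in the Ensembl gene models starts with Cpr followed by a digit, or with Twdl. They numbered 95 of 13945 protein-coding genes, 70 of them Cpr genes and 25 Twdl genes. They were set against the other 13850 protein-coding genes.

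Cpr genes encode cuticular proteins that carry the Rebers and Riddiford consensus, a stretch that binds chitin. Twdl genes encode the Tweedle family, structural proteins of insect cuticle, and dominant TwdlD alleles make larvae and pupae short and squat. Epidermal cells secrete both kinds of protein into the chitin matrix, in the embryo late in its development and again at each moult and at metamorphosis. Many of the genes lie in tandem arrays that arose by duplication.

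The measurement was chromatin immunoprecipitation followed by sequencing for CG5245, a zinc-finger protein of the C2H2 class. The flies were a transgenic line, CG5245-GFP, in which CG5245 carries an eGFP tag at its C terminus, and chromatin was recovered through that tag, although the antibody entry of the labels reads CG5245. Whole embryos of 0 to 16 h, male and female together, gave 3 biological replicates of this 1 group, and sonicated fragments measured 200 to 800 bp. There was no second genotype, stage or tissue to set against it, and the control library was not analysed here. Since whole embryos mix tissues and stages, a weak signal from all cells and a strong signal from few cells cannot be told apart, and the sequencing depth is unknown because no read counts were used.

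Each deposited list gave regions with a summit, the base of highest enrichment, and a signal value, a score by which regions rank within their own list. The candidate lists held 30000 regions for the pooled replicates, 30000 each for replicates 1 and 2, and 29608 for replicate 3. The reproducible set was made by the authors with the irreproducible discovery rate, a measure of how well ranks agree between replicates. It held 3670 peaks, and these were the 3670 pooled candidates of highest signal. Not every peak in it was among the strongest regions of each replicate. A gene was counted as occupied where a reproducible summit lay within 500 bp of any of its transcription start sites (TSSs).

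No cuticular protein gene was occupied. The count was 0 of 95, made up of 0 of 70 Cpr genes and 0 of 25 Twdl genes, against 2210 of 13850 other protein-coding genes (16.0%). Over all protein-coding genes the share was 15.8%. The same held in each replicate when its list was reduced to the 3670 regions of highest signal. Then 0 of 95 cuticular genes carried a summit in any of the 3 replicates, against 16.6% of other genes in replicate 1, 15.5% in replicate 2 and 15.2% in replicate 3. The mean was 0% for cuticular genes and 15.8% ± 0.733 for other genes (SD, n = 3). The corresponding shares of all protein-coding genes were 16.5%, 15.4% and 15.1%.

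Candidates of any rank were also scarce at these promoters. A pooled candidate summit lay within 500 bp of a TSS at 14 of 95 cuticular genes (14.7%), against 51.4% of other genes and 51.2% of all genes. The Cpr genes accounted for 12 of the 14, 17.1% of their number, and the Twdl genes for 2, 8% of theirs. In the replicate lists, which were called separately, 11 cuticular genes had a candidate in replicate 1 (11.6%), 10 in replicate 2 (10.5%) and 16 in replicate 3 (16.8%). The shares among other genes were 53.4%, 50.6% and 45.9% in the same order of replicates, and among all genes 53.1%, 50.3% and 45.7%. Cuticular genes averaged 13.0% ± 3.38 and other genes 49.96% ± 3.77 (SD, n = 3), so the groups did not overlap in any replicate. Taken within each replicate, the difference averaged −37.0 percentage points ± 6.89. Cpr genes averaged 15.7% ± 2.47 and Twdl genes 5.33% ± 6.11. Within replicates the Cpr share was higher by 10.3, 14.3 and 6.57 percentage points, a mean of 10.4 ± 3.86 (SD, n = 3). The Twdl shares rest on 1, 0 and 3 genes, and each replicate scores the same genes. Of the 12 Cpr genes with a pooled candidate 9 lie on arm 3L, which holds no Twdl gene. A difference between families therefore cannot be told apart from one between arms. Under stricter rules the cuticular share was smaller still. Genes with a candidate in each of 2 replicates, at any place in the window, were counted with the other replicate left out. They made up 3.16% of cuticular genes without replicate 1, 5.26% without replicate 2 and 3.16% without replicate 3. The shares of other genes were 36.4%, 38.0% and 42.0%. Within 250 bp of a TSS the pooled share was 5.26%, against 41.6% of other genes.

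**Figure D1:**
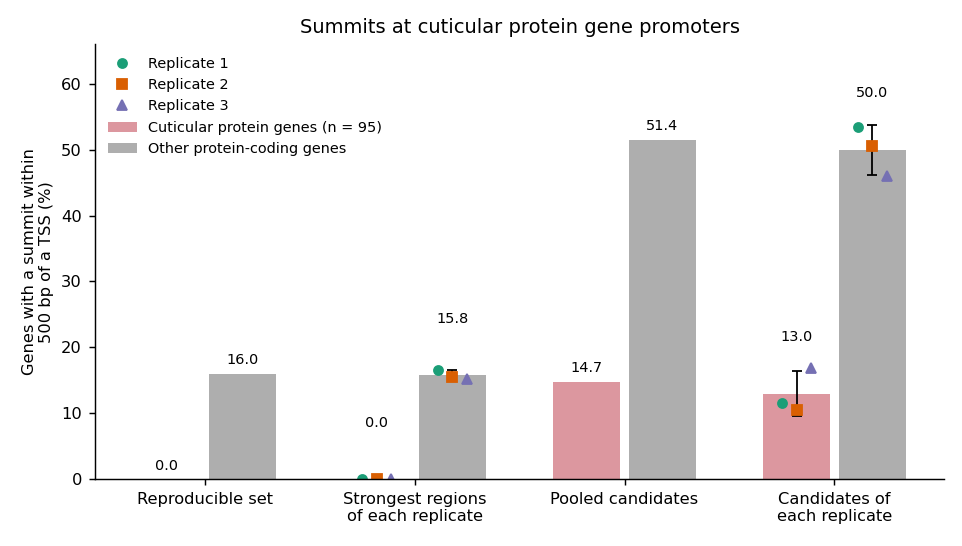
Share of genes with a summit within 500 bp of a TSS, in percent, for cuticular protein genes (red bars) and other protein-coding genes (grey bars) in 4 kinds of list. Bars over replicate lists are means with SD and points are the 3 replicates; cuticular genes stood at 0% in the reproducible set and at 13.0% in the replicate candidate lists, against 16.0% and 49.96% of other genes.

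Few cuticular genes had a candidate in more than 1 replicate list, and such candidates need not lie at the same place. Of the 95 genes, 67 (70.5%) had no candidate in any replicate list, 21 had one in 1 list, 5 in 2 lists and 2 in all 3. Among other genes 32.9% had none and 33.7% had one in all 3 lists. The pair with a candidate in every replicate was Cpr65Ea and Cpr73D. Twdl genes with any candidate were TwdlF, TwdlX, TwdlR and Twdlbeta, each in 1 replicate list. With the settings of the caller unstated, a candidate in 1 list is a region that the caller wrote out and not an established site.

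Where candidates did occur they ranked low. The best pooled candidate of the 14 genes ranked between 11253 and 22912, with a median of 19848.5, against a median of 6687.5 at the other genes that had one. Among those other genes, 31.0% had a best candidate that fell within the ranks of the reproducible set. Signal values at the 14 cuticular genes ran from 29.03 to 43.8, below the 92.4 of the weakest reproducible peak. The −log10 q values deposited with them lay between 0.0991 and 0.576, and a value near 0 means a q near 1. In the replicate lists the best rank at a cuticular gene was 5912 in replicate 1 (Cpr65Av), 8416 in replicate 2 (Cpr72Eb) and 5829 in replicate 3 (Cpr73D). The median ranks of cuticular genes with a candidate were 17503, 13147 and 17944.5 in the 3 replicates, against 6865.5, 7043 and 6874 for other genes. No replicate list placed a cuticular gene promoter among its strongest regions.

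**Figure D2:**
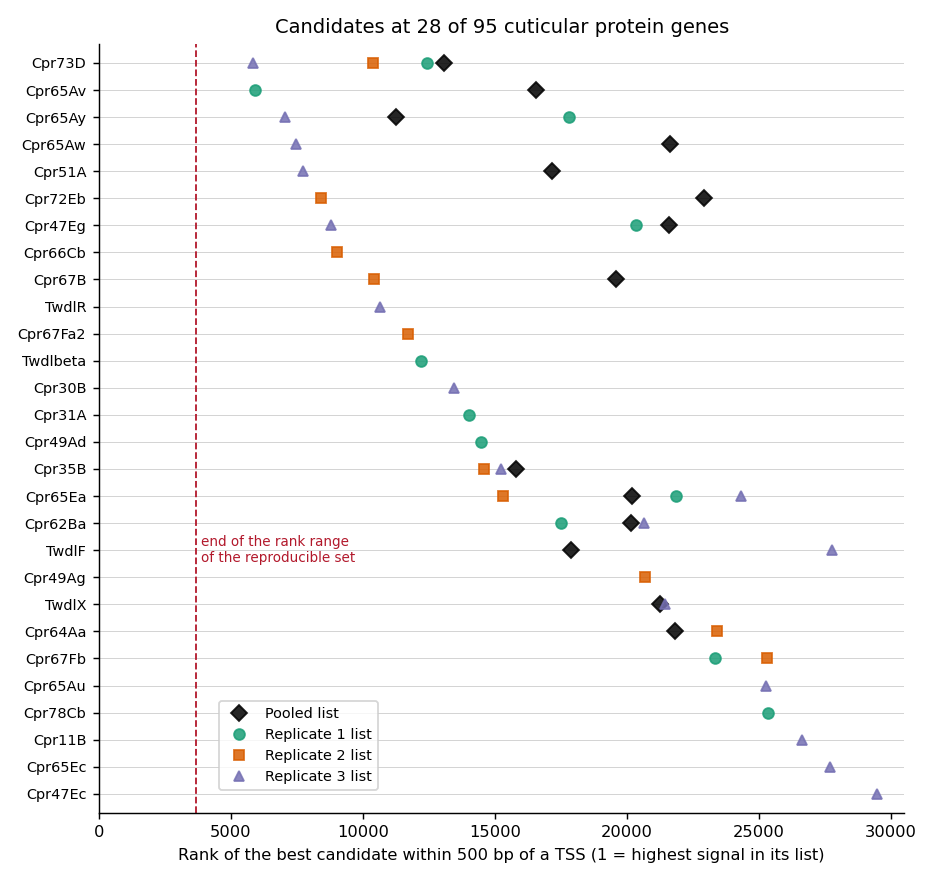
Rank of the best candidate within 500 bp of a TSS in the pooled list and in each replicate list (x axis, 1 is the highest signal) for the 28 of 95 cuticular protein genes with any candidate (y axis). The dashed line marks rank 3670, the end of the reproducible set, and every point lies to its right, the nearest at 5829.

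The candidates also sat farther from the start sites. At the 14 cuticular genes the median distance between summit and TSS was 323 bp, against 137.5 bp at other genes with a pooled candidate. Distances were taken to the nearest TSS of the gene, which favours short ones at genes with several start sites. Of the 14 genes 12 have 1 TSS, against 4394 of the 7120 other genes with a candidate. The distance among genes with 1 TSS was not compared. Of the 14 summits 6 lay upstream of the TSS, 7 downstream and 1 on it, and all 14 were nearer to the TSS of the cuticular gene than to that of any other protein-coding gene. At the edge of the 500 bp window, Cpr72Eb had its summit 482 bp upstream, Cpr64Aa 479 bp downstream and Cpr47Eg 478 bp downstream.

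Cpr65Ay had the best pooled rank, 11253, with a signal of 43.8 and a summit 91 bp downstream of its TSS. Its promoter ranked 17797 in replicate 1, was not listed in replicate 2 and ranked 7036 in replicate 3. Cpr73D, a long Cpr gene that overlaps Ogdh, the gene of a citric acid cycle enzyme, followed at rank 13067 with a signal of 40.2 and a summit 35 bp upstream. Its ranks were 12418, 10376 and 5829 in replicates 1, 2 and 3, so all 3 replicates listed a region within 500 bp of a TSS. Those summits lay 42 and 81 bp upstream and 220 bp downstream of a TSS. Cpr65Ea was the other gene listed in all 3 replicates, at ranks 21863, 15300 and 24313, and ranked 20204 in the pooled list with its summit 105 bp upstream. Cpr73D thus ranked ahead of both other genes in every replicate, and in replicate 3 ahead of the median of the other genes with a candidate there, 6874. Its ranks still fell outside the strongest 3670 regions of each list.

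The other genes among the 10 best pooled ranks each had a candidate in 1 or 2 replicates. Cpr35B ranked 15790 in the pooled list, with its summit 322 bp upstream, and was listed in replicates 2 and 3. Cpr65Av ranked 16549 (431 bp upstream) and was listed in replicate 1 alone, at 5912. Cpr51A ranked 17165 (137 bp upstream) and was listed in replicate 3 alone, at 7737. TwdlF ranked 17861 in the pooled list and 27755 in replicate 3, with its summit 324 bp downstream. The single-replicate ranks of Cpr65Av and Cpr51A were better than their pooled ranks, and no other replicate listed a region there. Cpr67B ranked 19566 (343 bp downstream), Cpr62Ba 20131 with its summit on the second of 2 TSSs, and TwdlX 21231 (365 bp downstream). The 4 remaining genes with a pooled candidate besides Cpr65Ea, namely Cpr47Eg, Cpr64Aa, Cpr65Aw and Cpr72Eb, ranked 21577, 21830, 21610 and 22912.

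A further 14 genes had a candidate in a replicate list alone. They were Cpr11B, Cpr30B, Cpr31A, Cpr47Ec, Cpr49Ad, Cpr49Ag, Cpr65Au, Cpr65Ec, Cpr66Cb, Cpr67Fa2, Cpr67Fb, Cpr78Cb, TwdlR and Twdlbeta. Cpr67Fb was listed in 2 replicates, at ranks 23346 and 25296, and each of the others in 1. The other 67 cuticular genes had no candidate within 500 bp in any of the 4 lists.

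The sequences around these start sites are shown because the cuticular promoters shared a feature that the choice of genes did not use. Each line gives 60 bases before to 20 bases after a TSS in the direction of transcription, read from the Release 6 (dm6) assembly of RefSeq, with capitals marking the letters TATAAA, the core of a TATA box. Cpr65Ay (chr3L:6158610-6158690, minus strand) and Cpr73D (chr3L:16957669-16957749, minus strand) had the best pooled ranks and no such match. Cpr65Ea (chr3L:7086588-7086668, minus strand) and TwdlX (chrX:16731031-16731111, plus strand) had a low-ranking candidate and a match that starts 29 and 30 bases before the TSS. TwdlM (chr3R:26619058-26619138, plus strand) and TwdlD (chr3R:26639965-26640045, plus strand) had no candidate in any list and a match at 26 and 27 bases before the TSS.
Cpr65Ay: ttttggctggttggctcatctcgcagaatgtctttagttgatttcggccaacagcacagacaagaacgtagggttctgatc
Cpr73D: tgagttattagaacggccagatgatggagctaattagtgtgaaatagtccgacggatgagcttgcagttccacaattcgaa
Cpr65Ea: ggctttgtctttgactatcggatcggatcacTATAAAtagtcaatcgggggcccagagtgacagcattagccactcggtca
TwdlX: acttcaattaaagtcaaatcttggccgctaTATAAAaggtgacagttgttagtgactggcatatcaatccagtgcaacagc
TwdlM: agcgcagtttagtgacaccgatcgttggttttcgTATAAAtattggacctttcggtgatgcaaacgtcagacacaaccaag
TwdlD: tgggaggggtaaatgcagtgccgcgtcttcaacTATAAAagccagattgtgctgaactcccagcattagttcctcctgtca

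The letters TATAAA lay 45 to 16 bases before the TSS on the sense strand at 54 of 95 cuticular genes (56.8%), against 8.42% of other genes and 8.75% of all promoters. Both families carried them, 39 of 70 Cpr genes (55.7%) and 15 of 25 Twdl genes (60%). Among the occupied other genes the share was 2.53%. The letters were sought only before the most upstream TSS of each gene, while a gene counts as occupied through any TSS. Of the 2210 occupied other genes 975 have 2 or more TSSs, so the promoter searched may not be the one with the summit. A match is a run of letters and not a measured binding site. Of the other genes with the letters in this window 4.80% were occupied and 24.9% had a pooled candidate, against 17.0% and 53.8% of those without them. Within the cuticular genes the letters made no such split, since 8 of the 54 genes with them (14.8%) and 6 of the 41 without them (14.6%) had a pooled candidate.

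Cuticular genes also had fewer start sites. A single annotated TSS was present at 87 of 95 cuticular genes (91.6%) and at 73.4% of other genes, and a gene with more start sites has more windows in which a summit can fall. Among genes with 1 TSS, 0 of 87 cuticular genes and 12.2% of other genes were occupied, and 13.8% and 43.3% had a pooled candidate. Among genes with 1 TSS and the placed TATAAA letters, 0 of 54 cuticular genes and 3.21% of other genes were occupied, and the candidate shares were 14.8% and 20.3%. Among genes with 1 TSS and without the letters, 0 of 33 cuticular genes and 13.2% of other genes were occupied, and the candidate shares were 12.1% and 45.8%. In the set with both features few other genes were occupied, so a count of 0 of 54 lies near their share. The difference in candidate share was also smaller in that set, while in the set without the letters it was nearly as large as over all genes. What part promoter type has in the result was not tested.

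**Figure D3:**
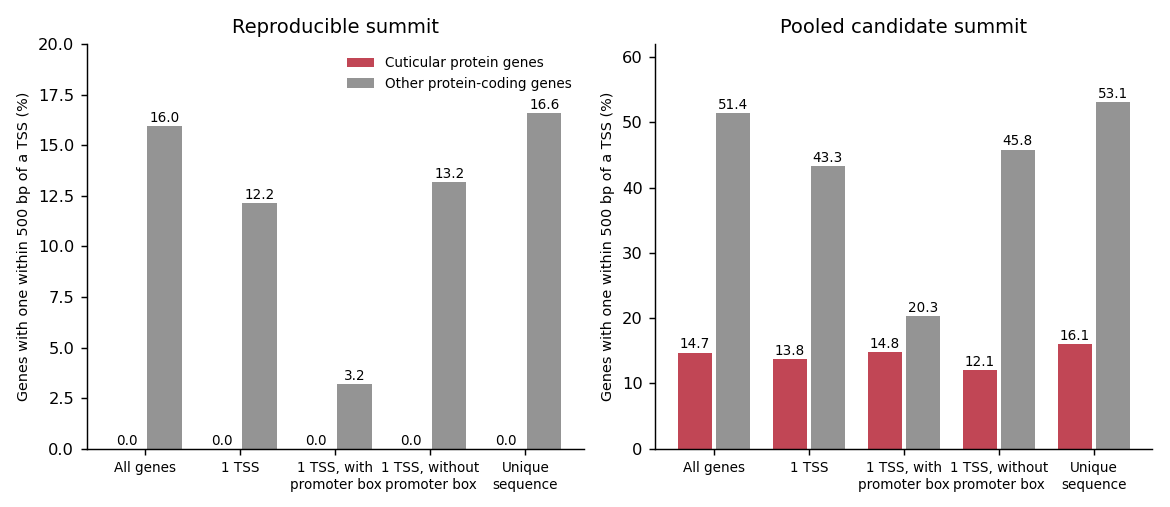
Share of genes with a reproducible summit (left panel) and with a pooled candidate summit (right panel) within 500 bp of a TSS, in percent, for cuticular protein genes (red) and other protein-coding genes (grey) in all genes, in subsets matched on the number of start sites and on the placed TATA box letters (promoter box), and in unique sequence. Cuticular genes stood at 0% in every left-hand pair, where other genes reached only 3.21% with 1 TSS and the box. The right-hand pair closest in height was also that with 1 TSS and the box, 14.8% against 20.3%.

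Other short motifs in the 300 bases around the most upstream TSS (250 before it to 49 after it), searched on both strands, differed less in absolute terms. TATCGATA, the DNA replication-related element (DRE), was present at 1 of 95 cuticular promoters (1.05%), against 9.42% of other promoters and 14.8% of those of occupied genes. CGATA, which lies inside it, was found in 34.7% of cuticular and 47.4% of other promoters. CAGCTG, an E-box, was found in 9.47% of cuticular and 17.7% of other promoters, and in 24.4% of the promoters of occupied genes. GATAA, the core of a GATA-factor site, was found in 32.6% of cuticular and 55.3% of other promoters. TTTGCAT was found in 26.3% of cuticular and 9.44% of other promoters, and GAGAG in 31.6% and 29.7%. Among the promoters of occupied genes CGATA stood at 54.3%, but GATAA at 56.2%, TTTGCAT at 9.46% and GAGAG at 29% were close to the shares of all other genes. Shares in all promoters were 9.36% for TATCGATA, 47.4% for CGATA, 17.7% for CAGCTG, 55.2% for GATAA, 9.56% for TTTGCAT and 29.7% for GAGAG. These were chosen for description from 12 searches after their values were seen. The cuticular windows were also less rich in A and T, with a median of 55% against 62%, a property that by itself moves such shares.

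Near-identical gene copies are a second property of these families. Reads that match several copies may be lost or spread, and how the authors treated them was not stated. Uniqueness was measured within 500 bp of the most upstream TSS of each gene, as the share of 36-base words that occur once on the main arms. This share was 100% at 84 cuticular genes (88.4%) and at 92.5% of other genes. It was under 95% at 8 cuticular genes (8.42%), against 4.64% of other genes. The lowest were Cpr65Ax1 at 24.5% and Cpr65Ax2 at 28.1%, a pair of near-copies whose windows may not have been measured as single loci. TwdlL at 84.6%, TwdlK at 85.8%, TwdlJ at 87.2%, TwdlM at 90.8% and TwdlB at 91.7% lie in the array of TwdlM to TwdlD, and Cpr67Fa1 stood at 94.5%. None of these 8 had a candidate in any list. With them and like genes left out, 0 of 87 cuticular genes and 16.6% of other genes were occupied, and 16.1% and 53.1% had a pooled candidate.

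Reproducible peaks were farther from cuticular genes than from most genes, yet a few lay close. The median distance from the nearest TSS of the gene to the nearest reproducible summit was 19953 bp for cuticular genes (706 to 63188 bp), against 9162 bp for other genes. It was 16841.5 bp for Cpr genes and 22874 bp for Twdl genes, of which none came nearer than 9105 bp. Within 5000 bp there were 13.7% of cuticular and 36.2% of other genes, and within 20000 bp 50.5% and 70.1%. Genes of 1 cluster share a nearest peak, so these distances are not independent.

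**Figure D4:**
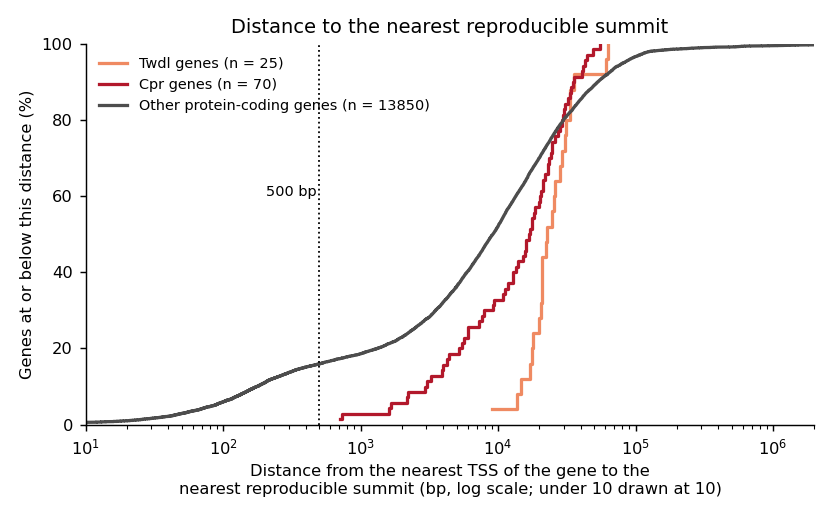
Cumulative share of genes (y axis, percent) by the distance between a TSS of the gene and the nearest reproducible summit (x axis, bp, log scale), for Twdl genes, Cpr genes and other protein-coding genes. Neither family has a gene to the left of the 500 bp line, where 16.0% of other genes lie, and the Twdl curve starts at 9105 bp.

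Widening the window to 1000 bp brought in 2 of 95 cuticular genes (2.11%), Cpr73D and Cpr64Aa, against 18.6% of other genes and 18.5% of all genes. Pooled candidates within 1000 bp were found at 30 of 95 (31.6%), against 59.7% of other genes and 59.5% of all genes. The candidate share of cuticular genes grew more with the wider window than that of other genes did.

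Reproducible peaks that touched a cuticular cluster, a cuticular gene body or the 1000 bp around a TSS numbered 3, all on arm 3L. The strongest, at chr3L:7090780-7091175, had a signal of 167 and rank 1472, and its summit lay in the intergenic stretch between Cpr65Eb and Cpr65Ec, 2191 bp upstream of the TSS of Cpr65Eb and 2226 bp upstream of that of Cpr65Ec. It ranked 1180, 2028 and 1866 in replicates 1, 2 and 3. The peak was therefore among the strongest regions of every replicate.

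The second, at chr3L:16956760-16957155, had a signal of 111 and rank 2832, and ranked 2211, 2754 and 2254 in the replicates. Its summit lay inside Cpr73D, 731 bp downstream of the TSS, and also inside Ogdh, whose own TSS was nearer at 481 bp. It was the only reproducible summit in any cuticular gene body, whereas 22 pooled candidates fell in the bodies of 17 cuticular genes. The third, at chr3L:4209686-4210081, had a signal of 95.2 and rank 3517, close to the end of the set. It lay 706 bp upstream of Cpr64Aa and inside CG43367, and ranked 5308, 3152 and 3937, so that replicate 2 alone placed it among its 3670 strongest regions.

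The 101 bases centred on these 3 summits are shown on the plus strand of Release 6 (dm6), with the 11 central bases in capitals, as the only reproducible sites at cuticular loci. They are named by the cuticular gene beside them.
Cpr65Eb (chr3L:7090928-7091028): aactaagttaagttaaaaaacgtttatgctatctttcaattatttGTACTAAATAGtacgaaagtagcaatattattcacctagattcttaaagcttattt
Cpr73D (chr3L:16956908-16957008): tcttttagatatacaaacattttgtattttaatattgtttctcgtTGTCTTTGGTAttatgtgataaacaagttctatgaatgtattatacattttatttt
Cpr64Aa (chr3L:4209834-4209934): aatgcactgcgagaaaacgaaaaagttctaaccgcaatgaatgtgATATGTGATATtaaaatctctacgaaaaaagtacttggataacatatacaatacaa
A and T made up 76.2% of the window beside Cpr65Eb, 79.2% of that inside Cpr73D and 69.3% of that beside Cpr64Aa. All 3 windows were richer in A and T than the median cuticular promoter.

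Most of the genes lie in tandem clusters, taken as 3 or more cuticular genes with gaps of at most 10 kb between neighbours. There were 14 clusters of 3 to 12 genes, holding 64 of the 95 genes, and 31 genes were dispersed. Neither class had an occupied gene. A pooled candidate was present at 10 of 64 clustered genes (15.6%) and at 4 of 31 dispersed genes (12.9%). In the replicate lists clustered genes averaged 13.0% ± 3.93 and dispersed genes 12.9% ± 3.23 (SD, n = 3), so that the classes differed by less than the spread between replicates.

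The clusters spanned 203 kb in all and 12 of the 14 held no reproducible summit. The 2 that did were Cpr65Ea to Cpr65Ec and Cpr64Aa to Cpr64Ad, with 1 each. Reproducible summits stood at 0.985 per 100 kb within the clusters, against 2.74 per 100 kb over the main arms. Pooled candidates were less scarce there, at 17.2 per 100 kb within clusters against 22.4 over the arms. In the replicate lists the density was 14.8, 15.3 and 23.2 per 100 kb within clusters in replicates 1, 2 and 3, against 22.4, 22.4 and 22.1 over the arms. The means were 17.7 ± 4.70 in clusters and 22.3 ± 0.169 over the arms (SD, n = 3). Replicate 3 showed no deficit of candidates in the clusters, and the 3 lists differ in this respect.

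The longest run of Twdl genes, TwdlM to TwdlD, holds 12 genes in 21937 bp with no other protein-coding gene between them. It held 1 pooled candidate summit and 2 candidates in each replicate list, and only TwdlR had one within 500 bp of a TSS, at rank 10630 of replicate 3. The nearest reproducible summit was 14718 bp from TwdlD and 35625 bp from TwdlM. TwdlX to Twdlalpha held 4 genes, and TwdlF to TwdlV held 3, with 1 pooled candidate at a gene of each, TwdlX and TwdlF. Each of the 3 Twdl arrays held 1 pooled candidate summit.

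Cpr65Au to Cpr65Az was the longest Cpr cluster, with 7 Cpr genes interleaved with 11 other protein-coding genes over 30348 bp. It held 10 pooled candidate summits, and 9, 6 and 6 candidates in replicates 1, 2 and 3, but no reproducible one. Pooled candidates lay at Cpr65Av, Cpr65Aw and Cpr65Ay. Of the 11 interleaved genes 4 had a pooled candidate. The best was at CG13297, at rank 7922, ahead of every cuticular gene, and the adult cuticle protein gene Acp65Aa had one at rank 20721. Of the 9 Lcp65A genes, which encode larval cuticle proteins, only Lcp65Ae and Lcp65Ad had one, at ranks 28526 and 28614. This cluster therefore had the most pooled candidates of the 14 without a summit in the reproducible set.

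The other Cpr clusters each held few candidates at promoters. Cpr47Ea to Cpr47Eg (7 genes), Cpr62Ba to Cpr62Bc (3) and Cpr72Ea to Cpr72Ec (3) had a pooled candidate at 1 gene each, as did Cpr64Aa to Cpr64Ad (4) and Cpr65Ea to Cpr65Ec (3). Cpr49Aa to Cpr49Ad (4), Cpr49Ae to Cpr49Ah (4), Cpr67Fa1 to Cpr67Fb (3), Cpr76Ba to Cpr76Bd (4) and Cpr78Ca to Cpr78Cc (3) had none. Strong peaks lay just beyond some of these. A reproducible peak of signal 582 and rank 89 lay 3980 bp from Cpr78Cc, and one of signal 297 and rank 467 lay 1608 bp from Cpr76Ba. In both clusters the promoters themselves carried no pooled candidate.

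**Figure D5:**
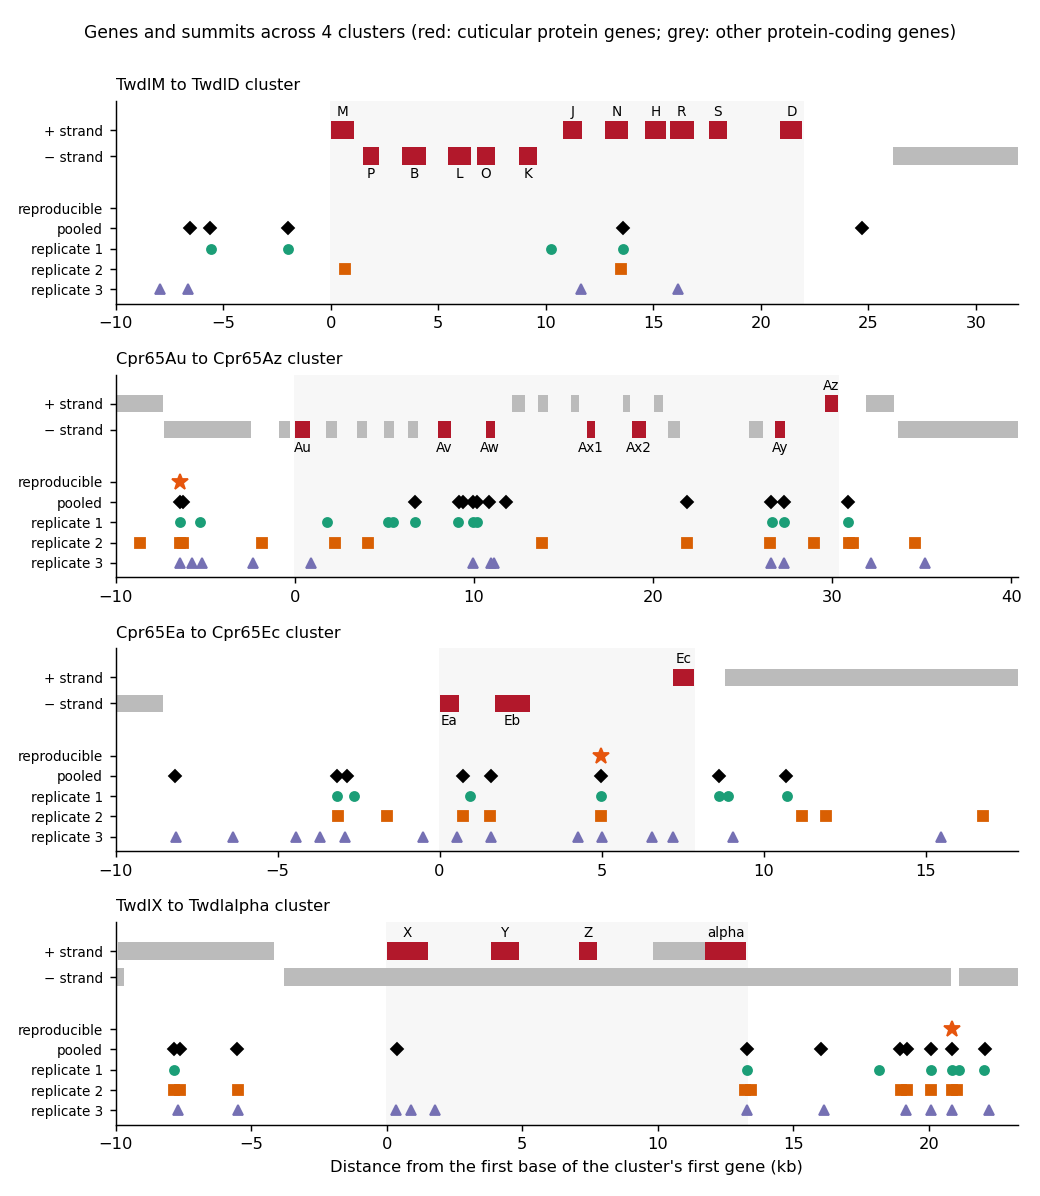
Genes and summits across the clusters TwdlM to TwdlD, Cpr65Au to Cpr65Az, Cpr65Ea to Cpr65Ec and TwdlX to Twdlalpha, with 10 kb on each side (x axis, kb from the first base of the first gene; the shaded stretch is the cluster). Boxes are cuticular genes (red) and other protein-coding genes (grey) by strand, and symbols below are summits of each list; the single reproducible summit within these 4 clusters, a star, lies between Cpr65Eb and Cpr65Ec.

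Other protein-coding genes that overlap the cluster spans numbered 25, and 1 of them was occupied. This was goe, a gene with a role in germ cells that spans the cluster of TwdlX to Twdlalpha on the other strand. Its reproducible summit, of signal 123 and rank 2451, lay 42 bp upstream of a goe TSS, outside the cluster and 9105 bp from Twdlalpha. Of the 25 genes 7 had a pooled candidate. They are mostly cuticle protein, receptor or uncharacterised genes, among them 9 Lcp65A genes, Acp65Aa, Edg78E and the odorant receptor gene Or47a.

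Genes that act with the cuticular proteins were set beside them. Genes listed by symbol as other cuticular protein families (Lcp, Ccp, Pcp, Edg, obstructor, Mur and related names) resembled them, with 0 of 42 occupied and 7 with a pooled candidate (16.7%). The best ranked of the 7, at Lcp9 (rank 9283), was nearer to the TSS of CG3594, at 20 bp. Of 25 Osi genes, which encode the Osiris membrane proteins of the epidermis, 1 was occupied, Osi24, at a signal of 120 and 213 bp upstream of its TSS, and 4 had a pooled candidate. Of 22 genes for chitin synthesis, secretion and cuticle assembly, 3 were occupied (13.6%) and 10 had a pooled candidate (45.5%). The occupied ones were Cht7, a chitinase gene (signal 182, rank 1270), Idgf6, a chitinase-like gene (signal 124, rank 2411), and rtv, a gene needed to order chitin fibres (signal 121, rank 2506). Cht7 was among the strongest regions in all 3 replicates, Idgf6 and rtv in 2. These 22 genes thus had shares near those of all genes, 15.8% and 51.2%, and the structural genes did not. The Osi genes, which were first listed together with them, had lower shares, 4% and 16%. The nearness to all genes therefore holds only with the Osi genes set apart. Of the 22 genes 11 have 1 TSS and 3 have placed TATAAA letters, against 87 and 54 of the 95 cuticular genes. What part these features have in the contrast was not tested.

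Regulators of cuticle genes all had candidates, but some of these ranked low. All 13 on the list had a pooled candidate and 3 were occupied (23.1%), against 51.2% and 15.8% of all genes. The candidates at br, drm and Hr3 ranked 29410, 28306 and 26872, behind the worst cuticular rank of 22912. The other regulators ranked 12621 (ftz-f1) or better. All but 2 of the regulators have several TSSs, and among other genes with 2 or more TSSs 73.9% had a pooled candidate and 26.4% were occupied, so the occupied share was not above that of such genes. The occupied regulators were Eip75B and usp, nuclear receptor genes of the ecdysone response, and tai, the gene of an ecdysone receptor coactivator. Eip75B had a signal of 226 and usp of 164, while the summit at tai, with a signal of 227, was nearer to the TSS of CG9586 at 71 bp. The regulators have a median of 3 TSSs, against 1 TSS at most cuticular genes. Of 7 genes for tanning and pigment 0 were occupied and 3 had a pooled candidate, Ddc, y and t, at ranks 7603, 9913 and 10292.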

How the data were processed

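Chromatin immunoprecipitation of CG5245-eGFP was analysed in 3 embryo replicates of 1 group, from the 5 lists of regions on dm6. Per the deposited text notes on the files, the authors made candidate lists from each replicate and from the pool with a control, and from these a reproducible set by the irreproducible discovery rate. Aligner, caller and parameters: not given in the sources used here. Deposited with each region, the signal value is a score of the authors' caller and served only for ranks within a list, and the q values were deposited as −log10. Lists on dm3 and the control were not used, and 0 columns belonged to another series.

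Summits (region start plus summit offset, 1-based) were assigned to every protein-coding gene with a TSS within 500 bp, using Ensembl release 115 models on the 6 main arms of Release 6. Per-replicate shares used each list whole or its 3670 strongest regions. Python 3.11.15, numpy 2.4.6, pandas 2.3.3 and matplotlib 3.10.9 were used, and the counting steps were tested on simulated data. No test was run: there is 1 group, and the members and lists were chosen with earlier results of these data known. Counts stand beside those of all other protein-coding genes. SDs measure the spread between replicates, and depth and its error are unknown.

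Named were any occupied cuticular gene, the 10 with the best pooled rank, every cluster by its first and last gene, and the occupied genes of the other lists, while further genes were chosen after their values were seen. Of the listed genes, those with no gene model under their name were left out, as was the listed symbol cyst, a gene of another role. Alternatives were other windows, nearest TSS only, single-TSS genes, stronger regions, stricter overlap, other cluster gaps, left-out replicates and, chosen after seeing the data, unique sequence (at least 95% of 36-base words) and placed TATAAA letters.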

Additional observations from a re-analysis of the deposited data

How the results depend on the processing

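No cuticular gene was occupied under any alternative run except the 1000 bp window, which brought in Cpr73D and Cpr64Aa, so the difference in occupied share (cuticular minus other, −15.96 percentage points) moved mainly with the share of other genes. It was −12.6 with 250 bp, −11.7 with the nearest TSS only, −12.2 for genes with 1 TSS, −8.66 for the upper 50% of peaks by signal, −10.8 for peaks in the strongest regions of all 3 replicates, −10.2 with 50% overlap, −12.6 to −11.9 without 1 replicate (a summit among the strongest regions of both others) and −4.80 among genes with placed TATAAA letters. The difference in pooled candidate share (−36.7) was −28.1 with 1000 bp, −28.8 with the nearest TSS only, −29.5 with 1 TSS and −10.1 with TATAAA, and the cuticular share itself (14.7%) was 5.26% with 250 bp and 3.16% to 5.26% without 1 replicate (a candidate in both others). The difference in median candidate rank (13161) was 10397.5 with 250 bp. Between clustered and dispersed genes, the occupied share differed by −1.66 with 1000 bp (0 with 500 bp), and the candidate share (2.72) changed sign to −8.11 with gaps of 5 kb and to −1.01 with 1000 bp. It ran from −4.89 to 3.02 without 1 replicate, and was −0.10 without replicate 3, so no direction is drawn from it. The cause of these shifts was not tested. The unique-sequence and TATAAA subsets were chosen after seeing the data. Depth is unknown, so a weak site cannot be told from an absent one.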

Other observations

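By chromosome arm, pooled candidates were found at 9 of 35 cuticular genes on 3L (25.7%), against 54.5% of other genes there, and at 1 of 24 on 3R (4.17%), against 51.0%. On 2R it was 2 of 22 (9.09%), against 50.8%, on 2L 1 of 6 and on X 1 of 8. The arms hold the families in different numbers, but Cpr genes alone also varied, with 9 of 35 on 3L (25.7%), 2 of 21 on 2R (9.52%), 1 of 5 on 2L, 0 of 5 on 3R and 0 of 4 on X. Twdl genes had 1 of 19 on 3R (5.26%) and 1 of 4 on X. Neighbouring genes share a locus, and the counts are small.

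Odorant, gustatory and ionotropic receptor genes, a list added after seeing the data, also had few summits. Of 179 such genes 1 was occupied (0.559%), Ir60e, whose summit was nearer to the TSS of CG13585, and 12 had a pooled candidate (6.70%), against 15.8% and 51.2% of all genes. Among other genes with 1 TSS the shares were 12.2% and 43.3%. Of the 179 receptor genes 167 have 1 TSS and 15 have placed TATAAA letters.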
